A study of Mus musculus with 16 samples.

Results

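The enzymes that turn polyunsaturated fatty acids into signalling lipids were examined in gastrocnemius muscle, a mostly fast-twitch muscle of the lower hind limb. The 10 genes were the cyclooxygenases Ptgs1 and Ptgs2, the prostaglandin D synthase Ptgds, the prostaglandin E synthases Ptges, Ptges2 and Ptges3, the leukotriene genes Alox5ap and Ltc4s, and the epoxide hydrolases Ephx2 and Ephx1. They were found by gene name among the probes of the arrays that are not controls. All 10 of the 27745 gene names on the array were present, on 13 of 41174 probes.

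Cyclooxygenases convert arachidonic acid, which cells cut out of their membranes, into prostaglandin H, and the synthases that follow make prostaglandins D and E from it. The lipoxygenase branch makes leukotrienes from the same fatty acid, and a cytochrome P450 branch makes epoxides, which the epoxide hydrolases open to diols. DHA and EPA, the long-chain n-3 fatty acids of fish oil, enter the same routes and give other products, so the arrays were asked which of these genes muscle expressed and whether their RNA differed when n-3 fatty acids were added to a rosiglitazone diet.

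All mice were C57BL/6N males, assigned at 3 months of age to a high-fat diet based on corn oil (cHF), in which lipids made up about 35% of the weight. Both groups ate it for 8 weeks with the insulin-sensitizing drug rosiglitazone, a ligand of PPARγ, at 10 mg per kg diet. The 8 cHF+ROSI mice received nothing else. For the 8 mice of the cHF+F+ROSI group, 15% of the dietary lipids were exchanged for a product rich in n-3 LC-PUFA (46% DHA and 14% EPA, as triglycerides). Before they were killed, all mice were fasted for 10 hours and then given Chow overnight, so that the values describe re-fed muscle after the high-fat diet had been withdrawn. Neither a group without rosiglitazone nor a lean group was among the 16 arrays.

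Each array carried the RNA of 1 mouse in the red dye Cy5 against a common pool in the green dye Cy3, with no dye swap. A slide below means the arrays that share a scan date in the file headers. The 4 slides so defined each held 2 mice of either group. A level is given below as the log2 ratio of the mouse over that pool, and it can be compared between mice but not between genes. The median Cy5 signal over background was 2.33 to 3.64 per array, and the array of cHF+ROSI replicate 1 was the lowest. Array pairs correlated with an r of 0.24 to 0.92 over the 19398 probes kept, and no 2 arrays were identical. The 6 fast-fibre markers, among them Ckm and Mylpf, stood well above background on all 16 arrays, which fits the labelled tissue. Muscle tissue also holds vessels, fat cells and macrophages, and in such samples fewer cells of a type and less RNA per cell cannot be told apart.

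Of the 10 genes, 8 were above background in the muscle of every mouse and 2, Ptgs2 and Ptgds, were not. A probe was called well above background by the scanner software, and a gene was counted as detected if that held on at least 8 of the 16 arrays. The 8 detected genes were carried by 10 probes, each of which was well above background on all 16 arrays. Over all probes of the array 57.1% were detected by the same rule.

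**Figure D1:**
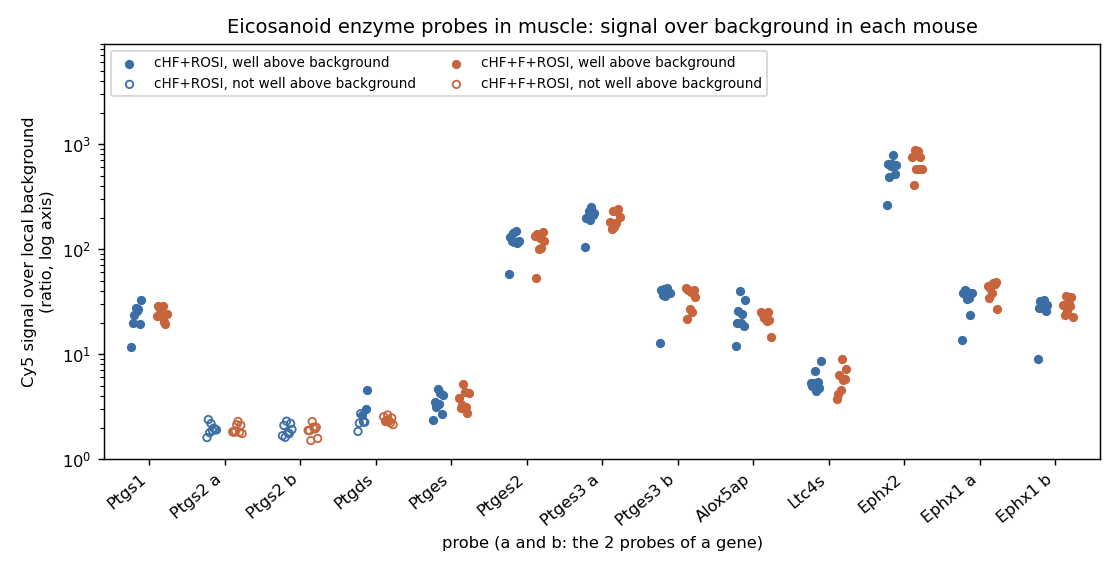
Cy5 signal over local background (ratio, log axis) of the 13 probes in each of the 16 mice, with filled points where the probe was well above background and open points where it was not. Both Ptgs2 probes stay at or under 2.38 with open points throughout, Ptgds has 4 filled points, and the other 10 probes are filled in all mice. Brightness depends on the probe, so the heights do not rank the genes.

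Ptgs1 and Ptgs2 were measured on opposite sides of the detection limit. Ptgs1, the cyclooxygenase that most cells make all the time, gave a Cy5 signal over background of 11.6 to 33.0 in cHF+ROSI mice and 19.5 to 28.9 in cHF+F+ROSI mice (mm8, chromosome 2, 36074133 to 36074192). Ptgs2, the cyclooxygenase induced by inflammation and injury, was read by 2 probes (chromosome 1, 151869832 to 151869891 and 151869504 to 151869563), the first of them spotted 10 times on each array. Neither was well above background on any of the 16 arrays. Of the 176 single readings of its 11 spots, 2 were called well above background. The signal over background of the first Ptgs2 probe was 1.61 to 2.38 in cHF+ROSI mice (median 1.91) and 1.76 to 2.29 in cHF+F+ROSI mice (median 1.84). The ranges of the groups overlapped, and no fold change is given for a gene below background in both groups. A low level of Ptgs2 RNA was not detectable on these arrays, which is not the same as its absence.

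The Ptgs1 log2 ratio in cHF+ROSI mice was 0.01 at the lowest, 0.18 at the median and 0.48 at the highest. In cHF+F+ROSI mice it was 0.09, 0.20 and 0.49. Of the 8 cHF+F+ROSI mice, 7 lay inside the cHF+ROSI range. The means of 0.20 ± 0.14 and 0.23 ± 0.15 (SD, n = 8 each) differed by 0.03 (95% interval -0.12 to 0.17, limma adjusted p = 0.925). On the 4 slides taken singly the difference was -0.21, 0.11, 0.29 and -0.08, without a common direction.

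**Figure D2:**
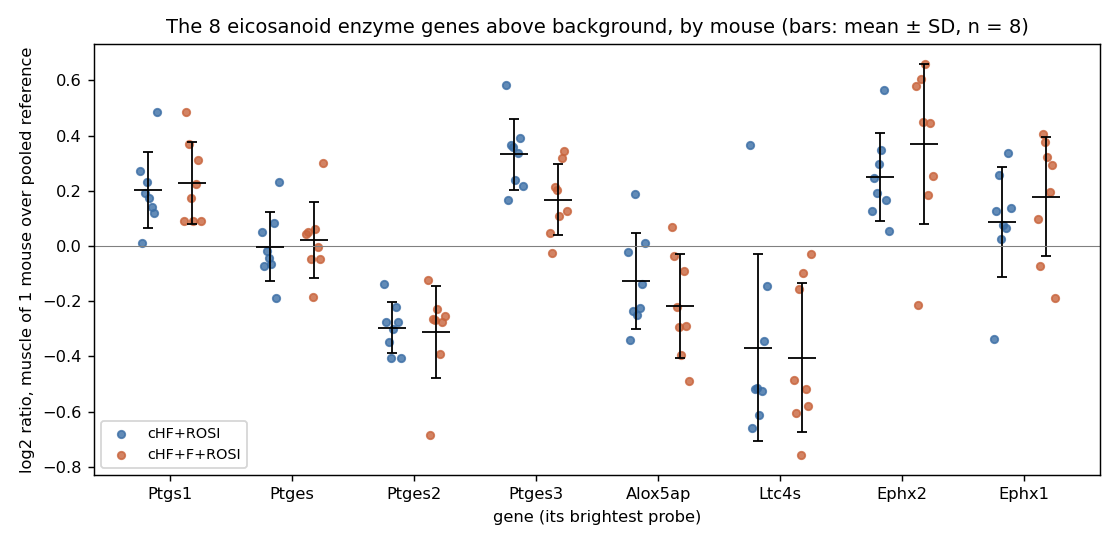
Log2 ratio of muscle over the pooled reference for the 8 genes above background, 1 point per mouse, with the mean ± SD of each group (n = 8). The groups overlap in all 8 genes. Ptges3 has 7 of 8 cHF+F+ROSI mice under the cHF+ROSI mean. Single mice stand off to the eye in Ptges2 and Ephx2 (cHF+F+ROSI replicate 2) and in Ephx1 and Ltc4s (cHF+ROSI replicate 1). Among these the gap test of the closing section flagged only the Ephx1 mouse.

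Ptgds, the lipocalin-type prostaglandin D synthase, was near the detection limit. Its probe (chromosome 2, 25289331 to 25289862, minus strand) was well above background in 3 of 8 cHF+ROSI mice and 1 of 8 cHF+F+ROSI mice. Its Cy5 signal over background ran from 1.84 to 4.55 in cHF+ROSI mice, with a median of 2.45. In cHF+F+ROSI mice it ran from 2.13 to 2.64, with a median of 2.33. The highest reading, 4.55 in cHF+ROSI replicate 8, stood above all the others. The probe failed the limit on signal over background in the Cy3 channel, and no difference is given for a gene below background in most mice.

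All 3 prostaglandin E synthases were detected, and Ptges3 was the only 1 of the 10 genes whose groups differed at an unadjusted p of 0.05. Over all 19398 probes 10.3% did so and 4.97% did so with lower values in cHF+F+ROSI mice, so 1 of 10 member probes is close to the share of the whole array. At an adjusted p of 0.05 none of the 10 member probes passed in limma, against 16 probes, or 0.0825%, of the whole array.

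Ptges3 codes for the small co-chaperone p23 of HSP90, which also has prostaglandin E synthase activity in the cytosol. Its brighter probe (chromosome 10, 127479590 to 127479649) had log2 ratios in cHF+ROSI mice of 0.17 at the lowest, 0.35 at the median and 0.58 at the highest. In cHF+F+ROSI mice these were -0.02, 0.17 and 0.34. The groups overlapped: 4 cHF+F+ROSI mice lay below every cHF+ROSI mouse and the other 4 lay inside their range. The highest cHF+ROSI value was that of replicate 1, the dimmest array.

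The mean Ptges3 log2 ratio was 0.33 ± 0.13 among cHF+ROSI mice and 0.17 ± 0.13 among cHF+F+ROSI mice (SD, n = 8 each), a difference of -0.16 (SE 0.06, 95% interval -0.30 to -0.03), or 0.81 to 0.98 times the cHF+ROSI level. The limma p was 0.0200 unadjusted and 0.385 adjusted, and a two-sided exact permutation test gave p = 0.0213. Within slides the difference was -0.22, 0.04, -0.28 and -0.21, negative on 3 of the 4 slides, and with the slide as a block the unadjusted p was 0.0275. In the pooled reference channel the same probe differed by 0.04 between the groups (unadjusted p = 0.311). The unadjusted call was lost in the authors' normalized table (-0.11), with median centring in place of loess (-0.12), in the Cy5 channel alone (-0.12) and with array quality weights (-0.08), where the p was 0.069 to 0.138.

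The second Ptges3 probe (chromosome 10, 127479048 to 127479107) gave a smaller difference of -0.06 (SE 0.06, limma adjusted p = 0.728). Its mice ran from -0.12 to 0.19 in cHF+ROSI and from -0.23 to 0.10 in cHF+F+ROSI. It was also negative on 3 of 4 slides. Over the 16 mice, after the group means were removed, the 2 Ptges3 probes correlated with an r of 0.32 (rho 0.31, permutation p = 0.247), whereas the 2 Ephx1 probes correlated with an r of 0.96 (rho 0.92, permutation p = 1e-05, the smallest the resampling can give). The difference between these correlations was not tested.

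**Figure D3:**
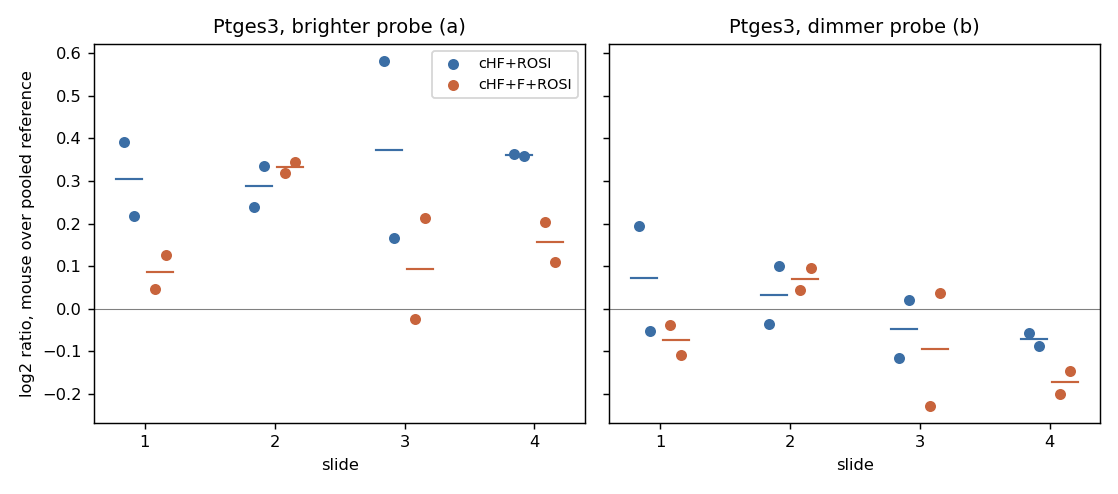
Log2 ratio of the 2 Ptges3 probes by slide, 1 point per mouse, with a short line at the mean of the 2 mice of a group on a slide. On the brighter probe the cHF+F+ROSI mean lies under the cHF+ROSI mean on slides 1, 3 and 4 (-0.22, -0.28 and -0.21) and slightly above it on slide 2 (0.04). On the dimmer probe the gaps are smaller (-0.15, 0.04, -0.05 and -0.10).

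Ptges, the inducible microsomal synthase usually coupled to Ptgs2, was detected on all 16 arrays although Ptgs2 was not (chromosome 2, 30714327 to 30714386, minus strand). Its signal over background was low, from 2.37 to 4.61 in cHF+ROSI and from 2.74 to 5.18 in cHF+F+ROSI mice. The Ptges log2 ratio ran from -0.19 over a median of -0.03 to 0.23 in cHF+ROSI mice, and from -0.18 over 0.02 to 0.30 in cHF+F+ROSI mice. The ranges nearly coincided, and the difference was 0.02 (95% interval -0.11 to 0.16, limma adjusted p = 0.925).

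Ptges2, a membrane-associated prostaglandin E synthase, lay at chromosome 2, 32224457 to 32224516. It had log2 ratios of -0.41, -0.29 and -0.14 (lowest, median, highest) in cHF+ROSI mice and of -0.68, -0.27 and -0.12 in cHF+F+ROSI mice. The value of -0.68 belonged to cHF+F+ROSI replicate 2, and the next lowest of that group was -0.39. The groups differed by -0.02 (95% interval -0.16 to 0.13, limma adjusted p = 0.964), and without that mouse by 0.04.

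Both leukotriene genes were detected in every mouse and overlapped between the groups. Alox5ap codes for FLAP, the membrane protein that hands arachidonic acid to 5-lipoxygenase (chromosome 5, 149596619 to 149596678). Its log2 ratio was -0.34 at the lowest, -0.18 at the median and 0.19 at the highest in cHF+ROSI mice. In cHF+F+ROSI mice it was -0.49, -0.26 and 0.07. Of the 8 cHF+F+ROSI mice, 2 lay below the cHF+ROSI range and 6 inside it. The difference was -0.09 (95% interval -0.27 to 0.09, limma adjusted p = 0.738). Without cHF+ROSI replicate 4 it was -0.05, and without cHF+F+ROSI replicate 1 it was -0.13.

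Ltc4s, which joins glutathione to leukotriene A and so makes leukotriene C, lay at chromosome 11, 50080443 to 50080502, on the minus strand. It varied most between mice of a group among the 8 genes, with a within-group SD of 0.31 that exceeded that of 93.5% of all probes. Its cHF+ROSI mice ran from -0.66 over a median of -0.52 to 0.37, the last value being that of the dim replicate 1. The cHF+F+ROSI mice ran from -0.76 over -0.50 to -0.03. The difference of -0.03 had a 95% interval of -0.33 to 0.26 (limma adjusted p = 0.957), the widest of the 8 genes. Without cHF+ROSI replicate 1 the difference was 0.07.

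The 2 epoxide hydrolases had the highest positive differences among the genes, and neither passed the test. Ephx2, the soluble hydrolase that opens the epoxides of arachidonic acid, EPA and DHA, lay at chromosome 14, 65038592 to 65038651, on the minus strand. In cHF+ROSI mice its log2 ratio was 0.05 at the lowest, 0.22 at the median and 0.57 at the highest. In cHF+F+ROSI mice it was -0.21, 0.45 and 0.66. Of the 8 cHF+F+ROSI mice, 3 lay above every cHF+ROSI mouse, 4 lay inside their range and replicate 2 lay below it.

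The mean Ephx2 log2 ratio was 0.25 ± 0.16 among cHF+ROSI mice and 0.37 ± 0.29 among cHF+F+ROSI mice (SD, n = 8 each), a difference of 0.12 (SE 0.11, 95% interval -0.11 to 0.35). The limma adjusted p was 0.720 and the exact two-sided permutation p was 0.319. Leaving out single mice moved the difference from 0.08 (without cHF+F+ROSI replicate 5, unadjusted p = 0.474) to 0.20 (without cHF+F+ROSI replicate 2, unadjusted p = 0.0244). The latter mouse also had the lowest ratio of the slow-fibre marker list (below). On the slides the difference was 0.31, -0.14, 0.01 and 0.31.

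Ephx1, the microsomal epoxide hydrolase known for the breakdown of foreign compounds, was read by 2 probes (chromosome 1, 182827133 to 182827192 and 182828626 to 182828685, minus strand). On the brighter one the cHF+ROSI mice ran from -0.34 over a median of 0.10 to 0.34. The cHF+F+ROSI mice ran from -0.19 over 0.24 to 0.41. The groups overlapped, with 2 of 8 cHF+F+ROSI mice above the cHF+ROSI range. The difference was 0.09 on this probe (95% interval -0.11 to 0.30, limma adjusted p = 0.767) and 0.11 on the other (adjusted p = 0.718). In the pooled reference channel the brighter probe differed by 0.08 between the groups (limma unadjusted p = 0.087). The lowest mouse, cHF+ROSI replicate 1, was again the dimmest array, and without it the difference in log2 ratio was 0.03. This mouse also had the highest Ptges2 value of its group. Its Ptgs1, Ptges, Alox5ap and Ephx2 values lay inside the range of the other cHF+ROSI mice. The part of array brightness in its values was not tested.

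Over the 8 genes with their brightest probe, 4 were lower and 4 higher in cHF+F+ROSI mice, with a median log2 difference of 0.0045 against 0.0015 over all 19398 probes. The median absolute difference was 0.063 against 0.060 over all probes.

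**Figure D4:**
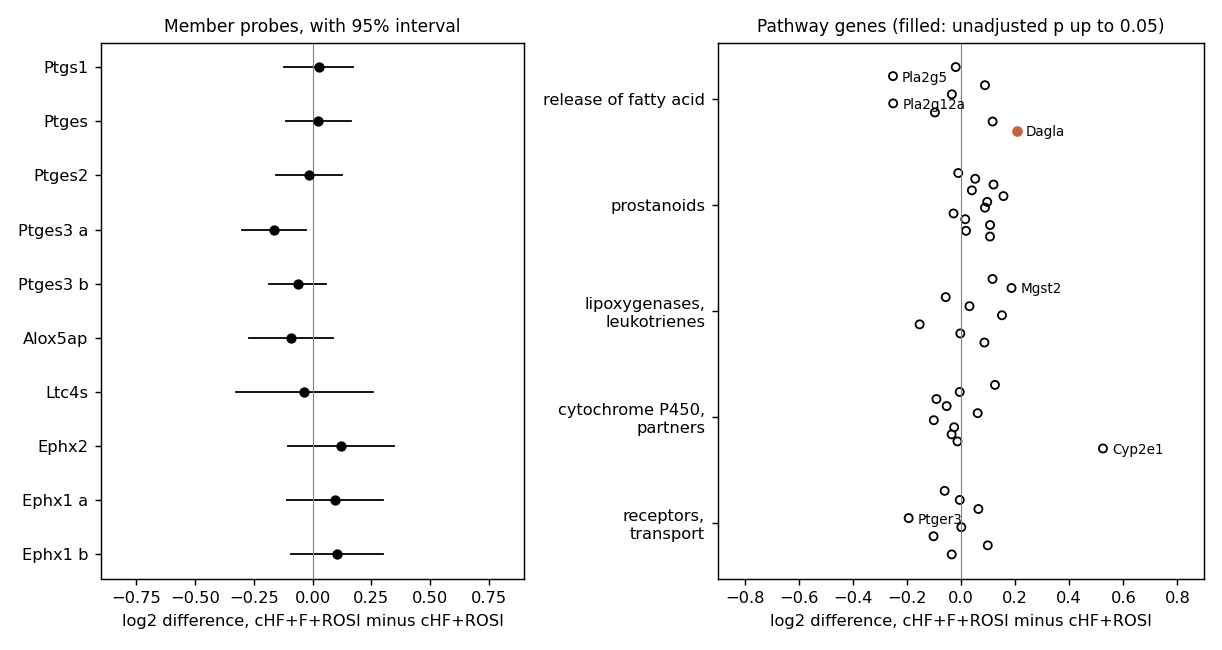
Log2 difference, cHF+F+ROSI minus cHF+ROSI, of the 10 member probes with their 95% limma interval (left) and of 46 further pathway genes by role (right, filled where the unadjusted p was up to 0.05). The intervals of 9 of 10 member probes span 0 and that of the brighter Ptges3 probe does not. On the right only Dagla is filled, at 0.21, and Cyp2e1 lies farthest out at 0.52 without passing. Cyp1a1, not among the 46, is not plotted.

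The genes around these enzymes were described from a list of 89 genes in 5 roles, of which 87 were on the array. Each gene was read by its brightest probe, and 59 were detected, against 57.1% of all probes taken without such a choice. The limits on signal over background were passed by 46. Of these 46, 1 passed an unadjusted p of 0.05, the diacylglycerol lipase Dagla, against 10.3% of all probes, and none passed an adjusted p of 0.05. Cyp1a1, detected in every mouse but removed by the limit in the Cy3 channel, did pass an adjusted p in the 4 settings that kept it, and it is described with the cytochrome P450 genes. The signs were nearly even, with 22 lower and 24 higher, and the median difference of the 46 was 0.0081.

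Among the genes that release fatty acids from lipids, 8 of 15 were tested, 5 lower and 3 higher. Dagla, which makes the endocannabinoid 2-arachidonoylglycerol, was higher by 0.21 (unadjusted p = 0.0431, limma adjusted p = 0.465). It missed the unadjusted threshold under 8 of 15 alternatives and without any 1 of 7 mice (cHF+ROSI replicates 1, 2 and 7 and cHF+F+ROSI replicates 1, 2, 7 and 8), and stayed positive throughout (0.09 to 0.27). The secreted phospholipases Pla2g5 and Pla2g12a had differences of -0.25 each (adjusted p = 0.497 and 0.543). The cytosolic phospholipase Pla2g4a, named here after its value was seen, had -0.03.

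Of the other genes of prostanoid synthesis and breakdown, 12 of 13 were tested. Against 9849 of 19398 probes over the whole array, 10 of the 12 had positive differences, none past the test. The 3 with the smallest p were Akr1b3, an aldose reductase that can make prostaglandin F, at 0.11 (limma adjusted p = 0.532), Prxl2b, a prostamide synthase, at 0.16 (adjusted p = 0.562), and Ptgr1, a prostaglandin reductase, at 0.12 (adjusted p = 0.599). The remaining gene, the haematopoietic prostaglandin D synthase Hpgds, was not detected on any array. Neither prostaglandin D synthase was thus above background in most mice.

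In the lipoxygenase and leukotriene list, 8 of 14 genes were tested, 3 lower and 5 higher. Dpep1, the dipeptidase that trims leukotriene D, had 0.15 (limma adjusted p = 0.493), and Mgst3 and Mgst2, membrane glutathione transferases, had 0.12 and 0.19 (adjusted p = 0.493 and 0.635). The lipoxygenase that FLAP serves, Alox5, was detected on all 16 arrays and had -0.15 (adjusted p = 0.663), while Alox15 was detected on none. Both were named after their values were seen.

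Of the cytochrome P450 genes and their partners, 10 of 26 were tested, 7 lower and 3 higher. Cyp2e1 had 0.52 with a wide spread (SE 0.30, limma adjusted p = 0.562). Without cHF+F+ROSI replicate 8, or with array quality weights, it had 0.32. With the replicate number as a block its limma p was 0.0207 unadjusted and 0.483 adjusted. The labels do not say that equal numbers pair mice, and whether they do was not tested. Cyp2e1 also passed the unadjusted threshold without cHF+F+ROSI replicate 1 or 7. Por, the electron donor of these enzymes, had 0.13 (adjusted p = 0.618), and Cyp4f18 had -0.09 (adjusted p = 0.677).

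Cyp1a1, the P450 best known as a target of the aryl hydrocarbon receptor and able to oxidise n-3 fatty acids, was higher in cHF+F+ROSI mice in each of the 4 settings that kept its probe (chromosome 9, 57501865 to 57501924). It was named after its values were seen. The probe was well above background in Cy5 on all 16 arrays (mean signal over background 5.80), but its mean in the Cy3 pool, 1.95, lay just under the limit of 2, so it was not among the 19398 probes tested above. With the filter on Cy5 alone, the log2 ratio was -0.0093 at the lowest, 0.26 at the median and 0.40 at the highest in cHF+ROSI mice, and 0.43, 0.66 and 0.92 with n-3 LC-PUFA. All 8 cHF+F+ROSI mice lay above every cHF+ROSI mouse.

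The Cyp1a1 means of 0.23 ± 0.16 and 0.68 ± 0.15 (SD, n = 8 each) differed by 0.46 (SE 0.07, 95% interval 0.30 to 0.61, limma adjusted p = 0.0251). With that filter 0.106% of 23537 probes passed an adjusted p of 0.05. The two-sided exact permutation p was 0.000155, the smallest the design allows. The difference was 0.64, 0.30, 0.32 and 0.57 on the 4 slides, the Cy3 channel differed by -0.00064, and with the slide as a block the limma adjusted p was 0.0433. Without single mice the difference stayed between 0.42 and 0.49 and the limma adjusted p between 0.00756 and 0.0753, past 0.05 without cHF+ROSI replicate 3 or 4 or cHF+F+ROSI replicate 5. The authors' normalized table gave 0.63 (limma adjusted p = 0.0182), and the fits without a filter and with the mean of both channels gave 0.47 and 0.46 (adjusted p = 0.0199 and 0.0246).

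Of the receptors and transporters, 8 of 21 were tested, 5 lower and 3 higher. The exporter Abcc4 had 0.10 (adjusted p = 0.569), the leukotriene B receptor Ltb4r1 had -0.10 (adjusted p = 0.630) and the prostaglandin E receptor Ptger3 had -0.19 (adjusted p = 0.703).

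Whether the genes varied between mice together with marker genes of other cells was examined over the 16 mice, with each value taken relative to its group mean. Each of the 8 genes was set against 5 marker lists, 40 relations in all, and 1 passed a permutation test after Benjamini-Hochberg adjustment. Alox5ap rose and fell with the mean of the 9 macrophage markers, among them Cd68 and Csf1r, with an r of 0.84 (permutation p = 0.00013, adjusted p = 0.0052) and a rho of 0.78 (permutation p = 0.0010, adjusted p = 0.040). The relation was positive within either group, with an r of 0.94 among cHF+ROSI mice and of 0.75 among those with n-3 LC-PUFA. Without the 2 mice farthest from the median of the macrophage list, r was 0.70 (permutation p = 0.0090, adjusted p = 0.090).

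The macrophage list itself did not separate the groups. It ran from -0.44 over a median of -0.22 to 0.45 in cHF+ROSI and from -0.44 over -0.20 to 0.26 in cHF+F+ROSI mice, all 9 genes were detected on all 16 arrays, and none of them passed even an unadjusted p of 0.05.

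Ltc4s and Ptges varied with the mean of the 7 adipocyte markers, which include Adipoq and Retn. For Ltc4s r was 0.68 and rho 0.59 (permutation p = 0.0033 and 0.024, adjusted p = 0.065 and 0.206). For Ptges r was 0.63 and rho 0.67 (permutation p = 0.010 and 0.0082, adjusted p = 0.070 and 0.165). Neither passed the adjustment over 40 relations. Without the 2 mice at the extremes of the adipocyte list r was 0.71 for Ltc4s and 0.72 for Ptges, both with an adjusted permutation p of 0.0497. The adipocyte list spread widely, from -1.01 to 0.41 in cHF+ROSI and from -1.41 to 0.96 in cHF+F+ROSI mice, and the groups overlapped.

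The means of the 8 slow-fibre markers, among them Myh7 and Tnnc1, went with Ptges2 (r = 0.74, rho = 0.55), Ephx2 (r = 0.70, rho = 0.47) and Ptges3 (r = 0.64, rho = 0.61), each with an adjusted permutation p of 0.070 for r and of 0.206, 0.307 and 0.206 for rho. The permutation p of r before adjustment was 0.010 for Ptges2, 0.010 for Ephx2 and 0.0079 for Ptges3. Without the 2 mice farthest from the median of that list, 1 of them cHF+F+ROSI replicate 2, r fell to 0.57, 0.49 and 0.57 in that order. That mouse had a slow-fibre mean of -2.22, next to -0.57 for the next lowest of its group. The 8 slow-fibre markers had a median group difference of -0.43, with 7 lower and 1 higher in cHF+F+ROSI mice and none past an unadjusted p of 0.05. The part of fibre make-up in the Ptges3 difference was not tested.

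**Figure D5:**
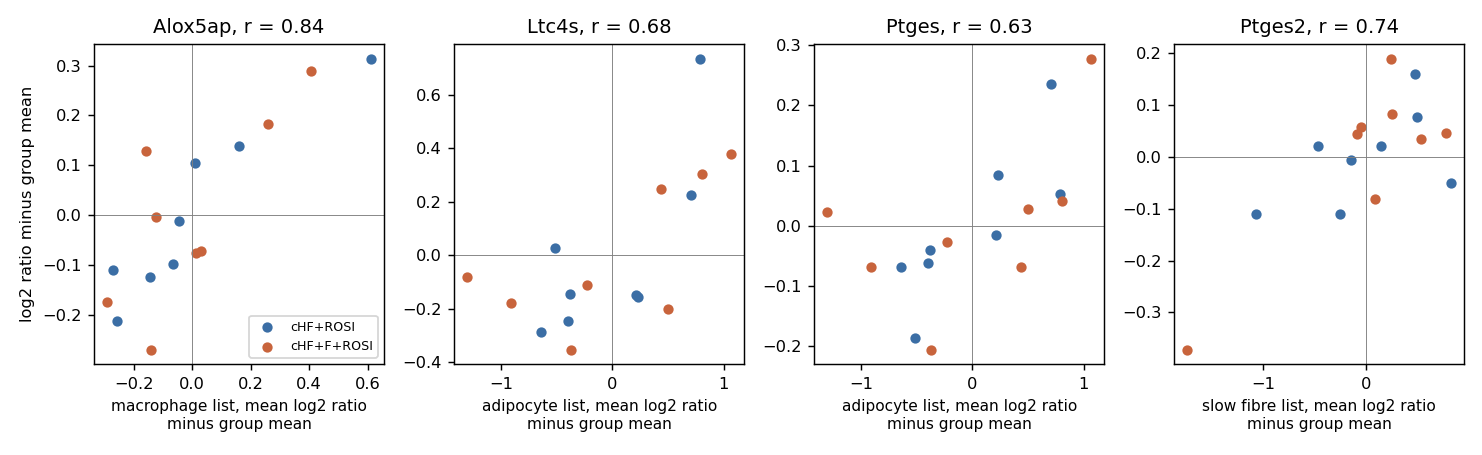
Log2 ratio of Alox5ap, Ltc4s, Ptges and Ptges2 (vertical) against the mean log2 ratio of a marker list (horizontal) in 16 mice, both relative to the group mean. Alox5ap follows the macrophage list along its whole range (r = 0.84), Ltc4s and Ptges follow the adipocyte list with more scatter (r = 0.68 and 0.63), and the slope of Ptges2 on the slow-fibre list (r = 0.74) leans on 1 cHF+F+ROSI mouse at the lower left.

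Among markers of other cells, 5 of 6 of endothelium, all detected on all 16 arrays, had lower values in cHF+F+ROSI mice with an unadjusted p within 0.05, against 4.97% of all probes. None passed after adjustment (limma adjusted p of the 5 from 0.247 to 0.449), and the remaining gene, Tie1, had 0.03. Pecam1 had a difference of -0.14 and Cdh5 of -0.19 (limma adjusted p = 0.307 and 0.247). The mean of the endothelial list ran from -0.21 to -0.03 in cHF+ROSI and from -0.47 to -0.15 in cHF+F+ROSI mice. Within groups its correlation with Ptges3 was -0.28 (rho -0.31, permutation p = 0.305, adjusted p = 0.582). Its part in the differences of the 10 genes was not tested. The mast-cell list, of cells known for leukotriene C synthesis, had 6 of 7 genes detected, with the receptor subunit Ms4a2 on no array, and the mean of its 4 tested genes ran from -0.30 to 0.41 in cHF+ROSI mice and from -0.28 to 0.91 with n-3 LC-PUFA. No marker of mast cells, fibroblasts, smooth muscle, Schwann cells, neutrophils or platelets passed an unadjusted p of 0.05.

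Between the 8 genes themselves, 28 pairs were compared over the 16 mice in the same way, a set added after the data had been seen. None passed the adjustment, and 5 had a permutation p of up to 0.05. The strongest, Ptges2 with Ephx2 (r = 0.74, rho = 0.59, permutation p = 0.0086 and 0.018, adjusted p = 0.162 and 0.256), dropped to an r of 0.36 without the 2 mice farthest from the Ptges2 median.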

How the data were processed

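RNA of 1 mouse per array (Cy5) was hybridised against 1 pool (Cy3) on Agilent arrays. The deposited intensities came from Feature Extraction, 10.5.1.1 in the file headers and 10.5.5.1 in the submitters' processing notes. The authors also deposited a table of normalized log2 values (used as an alternative, with its scale per array not stated); its 24377 probes were those whose signal averaged 2 or more times background over both channels. Positions are those of the array annotation (mm8).

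Background was corrected by normexp (offset 50) on median signals. On 5 of 16 arrays, more than 2 spots in a channel, and up to 21, lay over 20 units under their local background. With the fit on all spots, the median absolute log2 ratio was under 0.1 on 3 arrays and 0.028 on the lowest. Spots over 20 units under their background were therefore left out of the fit, a change made after the data were seen, and none of them belonged to the 10 genes. Spots were kept if the signal averaged 2 or more times background over the 16 arrays in each of the 2 channels, outlier flags were removed, log2(Cy5/Cy3) was normalized by loess, and spots of a probe were averaged. Groups were compared with limma 3.58.1 in R 4.3.3 over 19398 probes with Benjamini-Hochberg adjustment. The fit was checked only on real residuals with added changes larger than any difference of the 10 genes. Whether it finds differences of their size was not tested. Precision is limited by 8 arrays per group. Relations used 100000 permutations within groups.

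The 10 genes, gene lists and tests were chosen with earlier results of these data known. Named pathway genes were those past an adjusted p of 0.05, otherwise the 3 of each role with the smallest unadjusted p, and any other is marked in the text; marker lists are named by their first 2 genes. The brightest probe stood for a gene. In all, 24375 probes (59.2%) were named through RefSeq accessions, the others by the file's gene name. Replicates are separate mice per the labels. Alternatives are given in the closing section.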

Additional observations from a re-analysis of the deposited data

Results flagged for a closer look

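Over 32 groups of 8 values, those of the member probes above or near background and of the 5 marker lists, 2 single mice lay apart from the rest of their group by a gap test, where chance alone gives about 1 in 20, or 1.6 here. In Ephx1, cHF+ROSI replicate 1 had a log2 ratio of -0.34 on the brighter probe, next to 0.03 for the next lowest mouse, on the array with the lowest median Cy5 signal over background (2.33). In the slow-fibre marker list, cHF+F+ROSI replicate 2 had a mean log2 ratio of -2.22, next to -0.57.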

How the results depend on the processing

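No probe of the 10 genes passed an adjusted p of 0.05 under any alternative run, and detection stayed at 10 probes on all 16 arrays and 11 by a mean Cy5 signal over background of 2. Ptges3 was lower under all 16 alternatives (-0.20 to -0.06) and without each array in turn (-0.19 to -0.13, unadjusted p up to 0.0436), but the count of probes of the 10 genes at an unadjusted p was 0 with median centring, the authors' table or array weights, and 1 to 2 without single arrays (2 without cHF+F+ROSI replicate 2, which added Ephx2). With the Cy5 channel alone the 1 probe was that of Ephx1.

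The 1 pathway gene at an unadjusted p became 4 with Feature Extraction signals, median centring, the replicate block or array weights, 2 with scaling or Cy5 alone, 7 in the authors' table, 10 with no filter, 3 with the Cy5 filter or the mean of both channels (added later), and 0 with the slide block, the methods' t-test or normexp on all spots (added later); without single arrays it was 0 to 5 (0 without cHF+ROSI replicate 2, 5 without cHF+F+ROSI replicate 1 or 7). Those with another filter tested more of the list, 61 genes in the authors' table and with the mean of both channels, 87 with no filter and 59 with the Cy5 filter in place of 46, and in each of these 4 settings 1 gene, Cyp1a1, passed an adjusted p, where otherwise 0 did. On all spots normexp gave 1447 probes at an unadjusted p and 3 at an adjusted p, in place of 2005 and 16; array weights gave 145 and the replicate block 6 at an adjusted p. Deviations of same-numbered arrays from their group means correlated with an r of -0.26 to 0.34. Differently numbered arrays were not compared, so whether the numbers pair mice was not tested. The block cannot move a difference, and with it the unadjusted p of Ptges3 was 0.0207.

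Differences near 0 changed sign: Ptges to -0.0040 without background correction, -0.035 with Feature Extraction signals or median centring and -0.060 in the authors' table, Ptges2 to 0.015, 0.017, 0.031 and 0.038 with median centring, scaling, the authors' table and array weights, and Ltc4s to 0.11 with weights. Without single arrays the ranges were -0.011 to 0.066 for Ptgs1, -0.016 to 0.058 for Ptges, -0.042 to 0.038 for Ptges2, -0.089 to 0.070 for Ltc4s, -0.13 to -0.05 for Alox5ap, 0.08 to 0.20 for Ephx2 and 0.03 to 0.15 for Ephx1. The cause was not tested. Without the 2 farthest mice 3 marker relations passed, Ptges and Ltc4s with adipocyte and Ptgs1 with macrophage markers (r = 0.78), and Alox5ap did not.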
